A study of Homo sapiens with 12 samples.

Results

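The response to the SETD2 edit averaged over a pair of B-lineage acute lymphoblastic leukaemia lines was measured in all 12 of the 12 libraries of the series, 6 from 697 cells and 6 from KOPN-8 cells. In each line 3 libraries came from cells that had received an empty guide RNA vector and are labelled SETD2 wild type (control), and 3 came from 1 clone made with a SETD2 guide RNA and labelled SETD2 heterozygous knockout (edited; clone BM_B in 697, clone BA in KOPN-8). Polyadenylated RNA was sequenced from stranded libraries, and the readout was the number of reads per gene. A pair of quantities was taken from each gene in addition to its change in each line: the edit term, which is the single log2 fold change (edited minus control) that an additive model of line plus edit gives for both lines together, and the interaction, which is the KOPN-8 change minus the 697 change. A gene was called at a Benjamini-Hochberg adjusted p under 0.05 in edgeR's quasi-likelihood test over 15195 genes, with Y-linked genes and XIST left out.

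SETD2 is the enzyme that places the third methyl group on lysine 36 of histone H3 (H3K36) along the bodies of transcribed genes. The mark is read by proteins that act in splicing, DNA methylation, DNA mismatch repair and DNA damage signalling, and loss-of-function mutations of SETD2 recur in acute leukaemia. The 697 line resembles pre-B cells, and KOPN-8 carries a fusion of KMT2A, which drives HOXA genes.

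The libraries held between 10378769 and 18278662 counts each. Levels are given as CPM, counts scaled to a common library size, on which 3 counts correspond to 0.159 to 0.293 CPM, a floor that covers counting error only. Counts of replicates spread beyond sampling noise (chi-square per degree of freedom 2.74 to 9.78). Replicates are labelled biological, without a statement of how the cultures were kept apart. With 1 clone per line, the edit cannot be told apart from other differences between a clone and its control. P-values of the line changes and of the interaction measure the spread between libraries. Those of the edit term also take in the disagreement between the lines, which the additive model counts as spread. The median spread (root of the dispersion) was 0.127 in the additive model and 0.0822 in a fit with 1 mean per group. The 11 B-lineage markers measured summed to 4720 to 4980 CPM in control and 5440 to 5720 CPM in edited 697 libraries, and to 4330 to 4410 CPM and 4380 to 4450 CPM in KOPN-8. Summed markers of T cells ran from 84.5 to 187 CPM, with LCK the most abundant. CD3D was the 1 of 11 measured that stood at 0 in every library, while KOPN-8 controls had means of 87.8 CPM of TRAC and 26.1 CPM of CD7. Summed markers of myeloid, NK and erythroid cells reached at most 49.4, 89.2 and 2.36 CPM. CD33 made up 73% of the myeloid sum and NKG7 78.3% of the NK sum. At 0 in every library were 4 of 12 myeloid, 2 of 8 NK and 8 of 12 erythroid and megakaryocyte markers. S100A8, ELANE, NCAM1 and HBB were among these. In these bulk samples, fewer cells of a type and less RNA per cell cannot be told apart.

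SETD2 mRNA, averaged over both lines, was not lower in the edited libraries by the test. In 697, the 3 controls had 157, 158 and 169 CPM and the edited libraries 207, 211 and 239 CPM. In KOPN-8, the controls had 160, 171 and 178 CPM and the edited libraries 161, 151 and 162 CPM. The groups did not overlap in 697, where the edited libraries were higher, and overlapped in KOPN-8. The edit term was 0.17 with an SE of 0.0863 (edgeR's quasi-likelihood test, p adjusted after Benjamini-Hochberg = 0.224), and the interaction was -0.54 (edgeR adjusted p = 0.000226). The same average taken with equal weights from the fit with 1 mean per group was also 0.17, but with an edgeR adjusted p = 0.0151. Counts over the whole gene do not check a heterozygous frameshift, since an edited allele can still be transcribed.

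The edit term called 1867 genes, 784 higher (5.16% of the genes tested) and 1083 lower (7.13%), and 509 of them differed by at least 2-fold (186 higher, 323 lower). Most of these calls came from 1 line. Of the 1867 genes, 1188 (63.6%) were called in KOPN-8 alone, 323 (17.3%) in 697 alone, 261 (14%) in both lines with a shared direction and 93 (4.98%) in neither. The other 2 were called in opposite directions. A gene can have changed in a line that did not call it. The part of the wider replicate spread in 697 in this split was not tested. The estimates of the lines had opposite signs in 356 of the 1867 genes (19.1%), and the interaction was called in 463 (24.8%). A level of at least 1 CPM was reached in each line by 1271 of them, in KOPN-8 alone by 379 and in 697 alone by 180. Equal weighting of the line changes called 2988 genes, of which 1394 were also called by the additive model and 1594 were not; the interaction was called in 1020 of the latter. With same-numbered libraries paired as a replicate block, the edit term called 986 genes (418 higher, 568 lower), 962 of them shared with the 1867. Leaving out 1 library at a time gave 1236 to 1965 calls, the fewest without KOPN-8 control replicate 1.

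**Figure D1:**
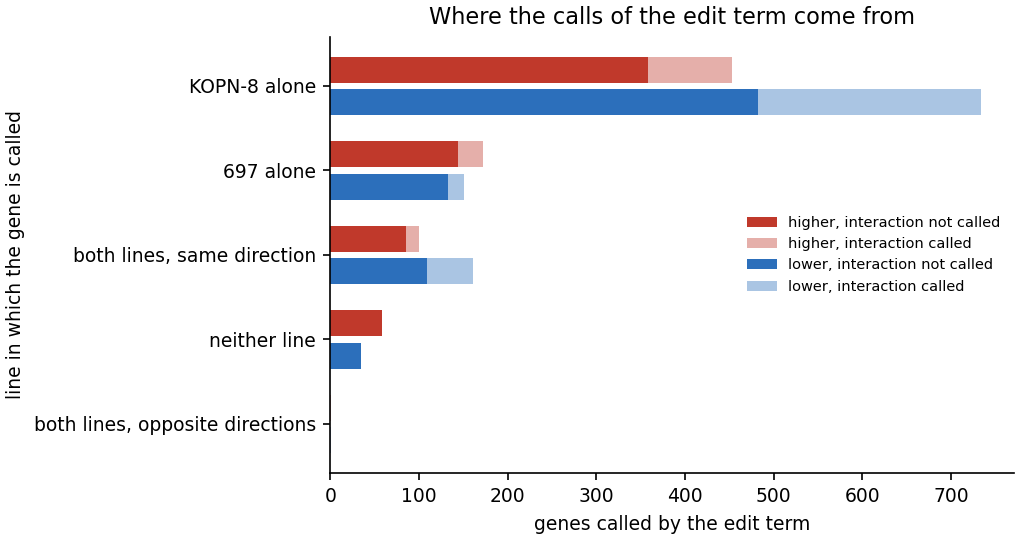
Bars give the number of genes called by the edit term (x axis), split by the line in which the gene was also called (y axis), with higher genes in red, lower genes in blue and genes also called by the interaction in the paler shade. The longest bars are those of the 1188 genes called in KOPN-8 alone, and the 261 genes that both lines called with a shared direction are 100 higher and 161 lower ones.

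Each line on its own gave more calls than they shared. In 697, 1413 genes were called (9.3% of those tested; 734 higher, 679 lower), and in KOPN-8, 4371 (28.8%; 1751 higher, 2620 lower). Both lines called 540 genes. Of these, 267 moved in the same direction, 102 higher (0.671% of the genes tested) and 165 lower (1.09%), and 273 (1.8%) moved in opposite directions. The 267 genes were 18.9% of the 697 calls and 6.11% of the KOPN-8 calls. With the replicate block the numbers were 527 and 493, and all 267 were among the 527.

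Across the 9535 genes with at least 5 CPM in a group of each line, the changes of both lines had Pearson's r = -0.03 and Spearman's coefficient = 0.004, and 50.4% of genes had the same sign. These are descriptions across genes, which are not independent replicates, and each line has its own controls. The interaction was called in 2968 genes (19.5%), 1136 with the higher change in KOPN-8 and 1832 with the lower. All 273 genes with opposite directions were among them, and so were 72 of the 267 with the same direction. No overlap between edited and control libraries in both lines, in the same direction, was seen in 855 genes (5.63%; 400 higher, 455 lower), and in opposite directions in 845.

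**Figure D2:**
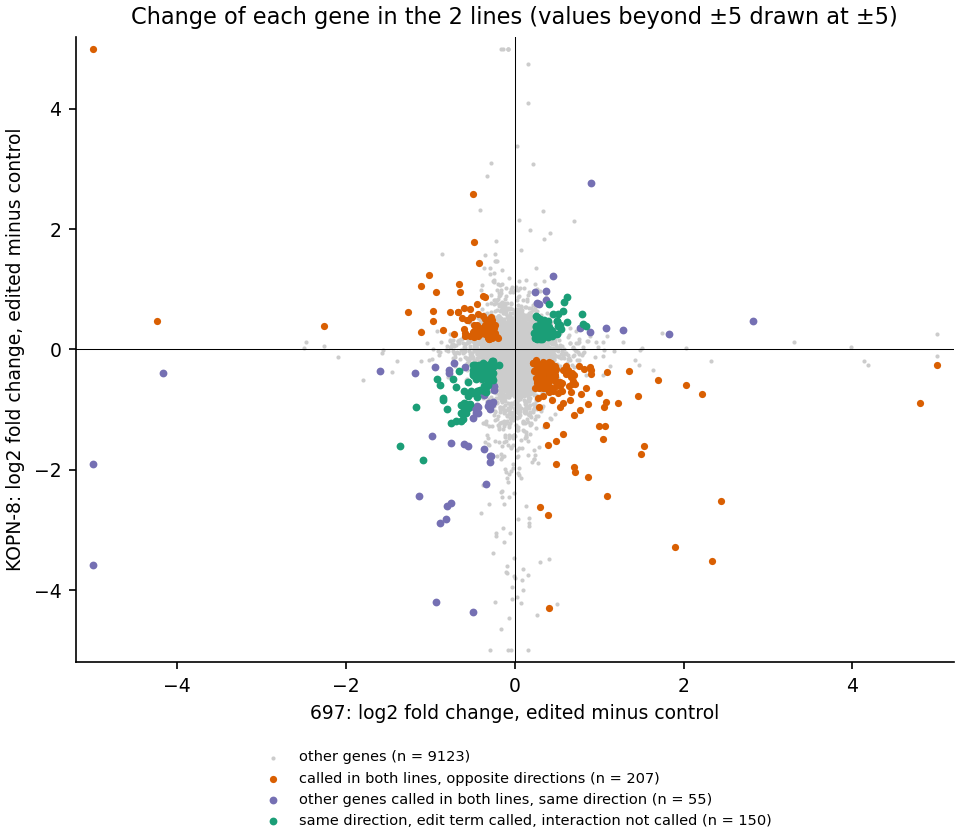
Each point is 1 of the 9535 genes with at least 5 CPM in each line, at its log2 fold change (edited minus control) in 697 (x axis) and in KOPN-8 (y axis). Genes called in opposite directions (orange, n = 207) fill the upper left and lower right, genes called by the edit term and in both lines the same way without an interaction (green, n = 150) lie close to the diagonal, and the cloud as a whole has no slope (r = -0.03).

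The genes that moved together were those called by the edit term, called in the same direction in both lines and not called by the interaction. There were 194 of them (1.28% of the genes tested and 10.4% of the edit calls), 85 higher with a median edit term of 0.35 and 109 lower with a median of -0.61. Edited and control libraries did not overlap in either line in 182 of the 194, against 855 of all genes tested (5.63%, same direction). The 194 were chosen by calls on these same libraries, so the lack of overlap is not independent support. At least 2-fold in both lines was reached by 28 of the 194. Protein-coding genes made up 91.8% of the 194 against 78% of the genes tested. The median span of the gene on the genome was 55.9 kb for the 85 higher genes, 35.6 kb for the 109 lower genes and 27.8 kb for all genes tested. For the 273 genes called in opposite directions it was 39.8 kb, so a span above that of all genes was not particular to the 194. A length was known for 94.8% of the 194 and 86.4% of all. At least 5 CPM in each line was reached by 150 of the 194 and by 9535 of the 15195 genes tested. The part of this difference in level in the coding shares and the spans was not tested. With the replicate block 323 genes met the definition (142 higher, 181 lower), and 177 of the 194 were among them.

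Chromosomes 8 and 13 held 795 of the tested genes, of which the edit term called 24 higher and 152 lower. Over all 15195 genes it called 784 higher (5.16%) and 1083 lower (7.13%). The median edit term was -0.20 on chromosomes 8 and 13 and -0.002 elsewhere. It pools both lines and does not show which line carried it. Of the 194 genes, 1 higher and 15 lower lay on these chromosomes. A test without their genes called 1669 genes by the edit term and left 169 genes that moved together.

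Among the genes that fell in both lines were regulators and signalling genes with levels well above the floor. LMO4, a LIM-domain adaptor of transcription complexes on chromosome 1, had 279, 429 and 361 CPM in control and 142, 163 and 170 CPM in edited 697 libraries. In KOPN-8 it had 118, 102 and 89.9 CPM in control and 57, 53.6 and 48.3 CPM in edited libraries. Every edited library was below every control of its line, and the edit term was -1.07 (SE 0.103; edgeR adjusted p = 1.75e-05) with an interaction of 0.21 (edgeR adjusted p = 0.559).

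PDGFRB, the receptor tyrosine kinase for platelet-derived growth factor B on chromosome 5, had 46, 88.4 and 71.6 CPM in control and 25.4, 44 and 27.2 CPM in edited 697 libraries. KOPN-8 controls had 6.32, 6.12 and 6.47 CPM and edited libraries 1.33, 1.47 and 2.44 CPM. The 697 controls spread widely, but no edited library reached a control in either line (edit term -1.33, SE 0.227; edgeR adjusted p = 0.00327). A further 3 RNAs without a protein product also fell by similar amounts in both lines. LINC01483 went from 7.5 ± 2.28 to 2.94 ± 0.382 CPM in 697 (mean ± SD, n = 3) and from 20.6 ± 1.52 to 6.73 ± 0.582 CPM in KOPN-8. MIR3142HG, the host transcript of miR-3142 and miR-146a, went from 19.7 ± 0.854 to 11.1 ± 1.79 CPM and from 31.7 ± 2.12 to 17.6 ± 2.87 CPM, with log2 fold changes of -0.85 in 697 and -0.84 in KOPN-8. KCNJ2-AS1 had log2 fold changes of -0.85 and -0.81. It is annotated as antisense, and reads of such a gene and of its partner are kept apart only if counting used the strand, which is not given in the sources used here.

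For the other members of the 12 lowest genes the direction was shared but the size was not. RTKN2, a GTPase-binding effector protein on chromosome 10, had 12.2, 13.3 and 17.9 CPM in 697 controls and 1 count in all edited 697 libraries together, a ratio of control to edited of 532 (95% counting interval 95.2 to 21100). In KOPN-8 it went from 14.2, 11.7 and 12 CPM to 1.17, 0.81 and 1.11 CPM. It was thus all but undetected in the edited 697 libraries and still above the floor in the edited KOPN-8 libraries (interaction, edgeR adjusted p = 1.46e-05). FRY, a microtubule-binding protein on chromosome 13, fell from 79.7 ± 9.15 to 45.7 ± 8.56 CPM in 697 and from 12.5 ± 0.453 to 1.8 ± 0.506 CPM in KOPN-8 (SD, n = 3). TPH2, a tryptophan hydroxylase of serotonin synthesis, fell from 45.4 ± 5.13 to 23.9 ± 2.91 CPM and from 6.61 ± 1.17 to 0.325 ± 0.285 CPM. XPNPEP2, a membrane aminopeptidase on the X chromosome, fell from 12.6 ± 3.03 to 6.92 ± 1.04 CPM and from 6.81 ± 1.01 to 0.912 ± 0.185 CPM. The interaction was called in all 3 (log2 differences of -2.01, -3.27 and -1.997). With the replicate block their edit terms did not pass, with edgeR adjusted p = 0.081 for FRY, 0.135 for TPH2 and 0.0526 for XPNPEP2. TPH2 also lost its call without 697 control replicate 2, 697 edited replicate 1, any of the KOPN-8 controls or KOPN-8 edited replicate 1 or 3, each left out alone (highest edgeR adjusted p = 0.0744).

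Metallothioneins, small cysteine-rich proteins that bind zinc and copper, fell in part in both lines. Of 8 genes tested in a list of metallothioneins and zinc response genes, 3 fell by the edit term (37.5%, against 7.13% of all genes), 0 rose, and the median edit term was -0.56 against -0.01 for all genes. MT1F had 12.1, 13 and 17.9 CPM in control and 6.63, 7.52 and 5.17 CPM in edited 697 libraries, and 16.1, 18.8 and 17.6 CPM in control and 3.61, 2.87 and 3.11 CPM in edited KOPN-8 libraries. It was lower in every edited library of both lines (edit term -1.78, SE 0.219; edgeR adjusted p = 0.000168). MT1E had 9.56, 11.2 and 10.4 CPM in 697 controls and 1 count in all edited 697 libraries (ratio of control to edited 388, 95% counting interval 69.3 to 15300). In KOPN-8 MT1E fell from 14.5 ± 1.29 to 3.91 ± 0.648 CPM (SD, n = 3). MT2A had 36.5, 37.6 and 36.7 CPM in control and 34.5, 36.6 and 26.2 CPM in edited 697 libraries, where the groups overlapped, and 51.8, 52.4 and 48.7 CPM against 22.4, 23.5 and 19.6 CPM in KOPN-8, where they did not. The KOPN-8 change alone thus carried its edit term of -0.71 (edgeR adjusted p = 0.0198), which was lost without KOPN-8 edited replicate 1 or 2 (highest edgeR adjusted p = 0.0568). The replicate block also ended the calls of MT1E (edgeR adjusted p = 0.0717) and MT2A (edgeR adjusted p = 0.085).

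MT1G and MT1X, chosen after their values were seen, were called in KOPN-8 alone. MT1G went from 22.9 ± 0.402 to 0.584 ± 0.138 CPM in KOPN-8 and from 60.9 ± 5.51 to 49.4 ± 12.6 CPM in 697 (SD, n = 3), where it was not called (edgeR adjusted p = 0.185). MT1X went from 20.1 ± 0.595 to 8.43 ± 1.34 CPM in KOPN-8 and from 189 ± 8.71 to 213 ± 26 CPM in 697, where it was not called (edgeR adjusted p = 0.214). Metallothionein promoters are known for metal response elements, which are bound by the zinc-sensing factor MTF1. To show them, the 250 bases before the start of MT2A (chr16:56608334-56608583) and MT1X (chr16:56682220-56682469), both on the plus strand of GRCh38.p14 as given by RefSeq, are printed with every match of TGCACNC or TGCGCNC on either strand in capitals.
MT2A: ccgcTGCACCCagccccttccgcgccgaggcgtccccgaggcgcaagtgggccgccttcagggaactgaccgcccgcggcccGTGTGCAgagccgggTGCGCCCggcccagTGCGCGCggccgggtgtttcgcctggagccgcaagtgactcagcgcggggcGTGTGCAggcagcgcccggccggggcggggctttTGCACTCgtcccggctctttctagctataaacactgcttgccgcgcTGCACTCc
MT1X: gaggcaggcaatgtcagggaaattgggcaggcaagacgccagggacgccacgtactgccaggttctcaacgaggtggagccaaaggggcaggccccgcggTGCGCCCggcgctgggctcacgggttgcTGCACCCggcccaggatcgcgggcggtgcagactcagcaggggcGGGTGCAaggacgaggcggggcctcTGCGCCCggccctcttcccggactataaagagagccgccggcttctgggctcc
The MT2A window held 7 matches and the MT1X window 4. Both genes were called in KOPN-8 alone. No promoter window was found for MT1E or MT1F, which were called lower in both lines, so the printed windows do not describe those genes. At least 1 match was found in 24.8% of the 35116 promoter windows of the table, at least 4 in 0.37% and at least 7 in 0.03%. A match is a description of the letters and not a measured binding site. MTF1 itself, also picked after its values were seen, was not called, with log2 fold changes of 0.08 in 697 and 0.25 in KOPN-8 and an edit term of 0.17.

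The genes that rose in both lines changed less than those that fell: 6 of those called higher in both lines reached 2-fold in each, against 31 of those called lower. NDRG4, an NDRG-family protein on chromosome 16, had 36.3, 34 and 33.3 CPM in control and 48.6, 49.7 and 43.7 CPM in edited 697 libraries, and 74.7, 84.7 and 88.7 CPM against 123, 124 and 128 CPM in KOPN-8. No library crossed between groups (edit term 0.53, SE 0.0583; edgeR adjusted p = 2.72e-05). CDK6, the cyclin D-dependent kinase that opens the way into S phase, had 50.4, 37.9 and 51.1 CPM in control and 73.7, 61.4 and 66.1 CPM in edited 697 libraries. In KOPN-8 it had 404, 436 and 428 CPM in control and 545, 579 and 557 CPM in edited libraries. It rose by a similar amount from very different levels, with an edit term of 0.47 (SE 0.0708; edgeR adjusted p = 0.00056) and an interaction of -0.13 (edgeR adjusted p = 0.553). ARHGAP27, a GTPase-activating protein, rose from 12.2 ± 1.45 to 21.2 ± 2.55 CPM in 697 and from 69.5 ± 5.45 to 105 ± 3.73 CPM in KOPN-8 (SD, n = 3), with the groups apart in both lines.

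FADS3 of the fatty acid desaturase family, the formin FMNL3, the mitochondrial carrier SLC25A45 and ASL, the argininosuccinate lyase of the urea cycle, rose with edit terms of 0.56, 0.48, 0.75 and 0.57, and the interaction was not called in any of them. DTX1, a Deltex ubiquitin ligase of Notch signalling, rose from 40.7 ± 6.19 to 55.8 ± 6.52 CPM in 697 and from 41.2 ± 2.83 to 95.7 ± 5.25 CPM in KOPN-8 (SD, n = 3), so that control levels close to each other ended far apart (interaction 0.76, edgeR adjusted p = 0.000298). ERCC6L, a helicase that coats DNA bridges in anaphase, showed the reverse order: it rose from 5.04 ± 0.133 to 35.7 ± 3.73 CPM in 697 and from 34.5 ± 0.601 to 47.9 ± 2.86 CPM in KOPN-8. Its edit term of 1.47 (edgeR adjusted p = 0.0353) was lost with the replicate block (edgeR adjusted p = 0.134). It was also lost without any 1 of the 697 libraries or without KOPN-8 control replicate 1 or 3 (highest edgeR adjusted p = 0.0692). The antisense RNA AL139020.1 rose from 4.49 ± 0.486 to 8.39 ± 0.498 CPM in 697 and from 6.69 ± 0.468 to 45.8 ± 2.76 CPM in KOPN-8.

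**Figure D3:**
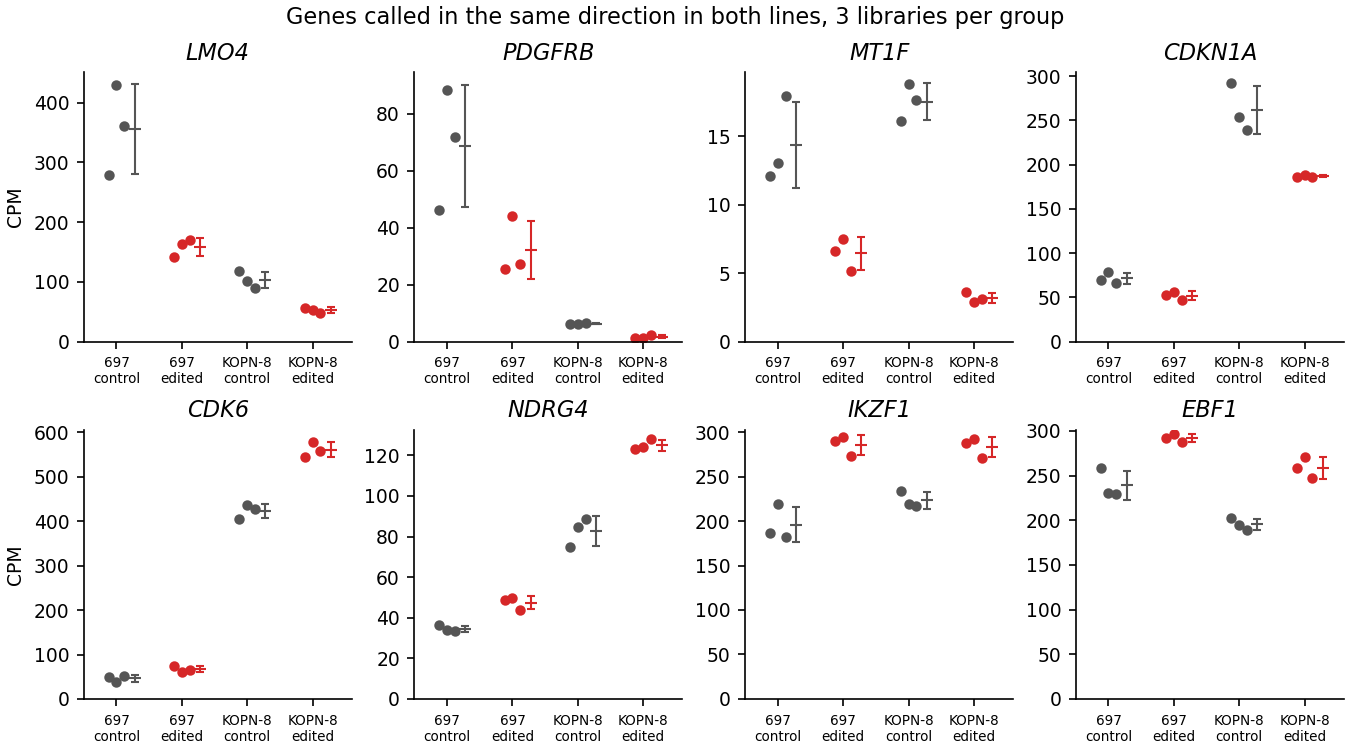
Each panel gives the CPM (y axis, from 0) of 1 gene in the 3 libraries of each group (x axis; controls grey, edited red), with the mean and SD beside them. In each of the 8 genes the edited libraries lie on the same side of the controls in both lines, lower for LMO4, PDGFRB, MT1F and CDKN1A and higher for CDK6, NDRG4, IKZF1 and EBF1.

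Several transcription factors of the B lineage rose in both lines. Of 28 genes tested for the pre-B receptor and B-lineage factors, 9 rose by the edit term (32.1%, against 5.16% of all genes) and 0 fell. The other 19 were not called, among them the factors TCF3, FOXO1 and BCL6. Members did fall in single lines: 8 were called higher and 1 lower in 697, and 16 higher and 4 lower in KOPN-8. The interaction was called in 13 of the 28. The median edit term was 0.17 against -0.01 for all genes. Both lines called 6 of the 9 higher: IKZF1, EBF1, BACH2, IRF4, IRF8 and IGLL5. IKZF1, which encodes Ikaros, a factor needed for lymphoid commitment, had 187, 219 and 182 CPM in control and 290, 294 and 273 CPM in edited 697 libraries, and 234, 219 and 217 CPM against 288, 292 and 271 CPM in KOPN-8. Its groups did not overlap, and the edited levels of both lines met at 286 ± 11.5 and 284 ± 11.1 CPM (SD, n = 3; edit term 0.44, SE 0.0581; edgeR adjusted p = 0.000148). EBF1, which specifies B cells, had 258, 231 and 229 CPM in control and 292, 296 and 287 CPM in edited 697 libraries, and 202, 195 and 189 CPM against 258, 271 and 247 CPM in KOPN-8. It too was higher in each edited library (edit term 0.35, SE 0.0485; edgeR adjusted p = 0.000276).

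BACH2, a repressor at the pre-B receptor checkpoint, rose from 103 ± 3.2 to 137 ± 3.4 CPM in 697 and from 128 ± 8.61 to 159 ± 3.87 CPM in KOPN-8 (SD, n = 3). IRF4 and IRF8, interferon regulatory factors that act in pre-B differentiation, had edit terms of 0.34 and 0.55. IGLL5 rose from 30.5 ± 4.49 to 45.6 ± 5.09 CPM and from 29.8 ± 3.23 to 51.8 ± 4.87 CPM; its sequence overlaps that of the immunoglobulin lambda constant genes, so its reads are uncertain. PAX5, the factor that holds B-cell identity, rose in KOPN-8 alone (log2 fold changes 0.05 in 697 and 0.44 in KOPN-8). Its edit term of 0.25 (edgeR adjusted p = 0.0234) was lost without any 1 of the KOPN-8 libraries (highest edgeR adjusted p = 0.0678) and with the replicate block (edgeR adjusted p = 0.0882). The signalling enzyme PLCG2 and the factor SPIB were the other 2 called higher, with edit terms of 0.23 and 0.45. IRF4, PLCG2, SPIB and the factors not called were picked with their values in view. The summed level of the 11 B-lineage markers, 2 of which rose and 0 fell by the edit term, was above the control range in every edited 697 library, a list that holds DNTT and RAG1; the part of such a shift in the changes of these factors was not tested.

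Markers of earlier B-cell stages did not share a direction. Of 12 pro-B and progenitor genes tested, 2 rose (16.7%) and 1 fell (8.33%) by the edit term, while 5 were called in opposite directions, all higher in edited 697 and lower in edited KOPN-8: RAG1, DNTT, MME, ERG and ETV6, of which none was picked by the rule for named genes. The list's median change was 0.29 in 697 and -0.74 in KOPN-8. RAG1, the recombinase of antigen receptor genes, had 300, 239 and 245 CPM in control and 569, 544 and 528 CPM in edited 697 libraries, and 254, 275 and 260 CPM against 116, 111 and 98.3 CPM in KOPN-8. The control levels were alike and the edited levels fell on either side of them without overlap, for an edit term of -0.09 (edgeR adjusted p = 0.917) and an interaction of -2.34 (edgeR adjusted p = 2.08e-13). DNTT, the terminal transferase, went from 1970 ± 62.1 to 2440 ± 30.3 CPM in 697 and from 2.03 ± 0.558 to 0.403 ± 0.203 CPM in KOPN-8 (SD, n = 3). ERG, an ETS factor of progenitors, went from 39.4 ± 2.68 to 56.9 ± 2.19 CPM and from 51.5 ± 1.84 to 26.7 ± 3.12 CPM.

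SPINK2, a protease inhibitor of stem and progenitor cells, was the 1 progenitor gene called lower in both lines. KOPN-8 controls had 180, 169 and 142 CPM and edited libraries 25.5, 24.6 and 25.9 CPM, while 697 controls had 1.31, 2.36 and 1.28 CPM and edited libraries 0.298, 0 and 0.39 CPM, near the floor. The edit term was -2.70 (SE 0.149; edgeR adjusted p = 4.41e-08). IL7R, the interleukin 7 receptor of B-cell precursors, rose from 134 ± 7.78 to 200 ± 17 CPM in KOPN-8 and was not called in 697, at 563 ± 11.2 and 626 ± 12.1 CPM (SD, n = 3). Of 23 KMT2A-fusion targets tested, 2 rose (8.7%; CDK6 and MBNL1) and 3 fell (13%; HOXA9, LMO2 and PROM1), and the 3 that fell were called in KOPN-8 and not in 697. HOXA9 had 0 counts in 697. HOXA3, called higher in both lines, was not called by the edit term: it went from 2.35 ± 0.111 to 8.5 ± 1.77 CPM in 697 and from 52.4 ± 2.85 to 62.6 ± 5.15 CPM in KOPN-8, with an edit term of 0.77 (edgeR adjusted p = 0.059). In a list of 12 markers of mature B and plasma cells, 3 genes rose (25%) and 1 fell (8.33%). JCHAIN, which joins immunoglobulin chains, was called higher in both lines, from 723 ± 64.7 to 868 ± 83.9 CPM and from 183 ± 9.78 to 312 ± 31 CPM. HOXA3, JCHAIN, HOXA9 and MBNL1 were also chosen after their values were seen. Of 4 T-cell markers tested 1 rose and 2 fell, and of 5 myeloid markers 1 rose and 0 fell. Edited KOPN-8 libraries had 116 to 128 CPM of summed T-cell markers against 157 to 187 CPM in their controls, and the part of this in other changes was not tested. The edit term called neither the 1 erythroid nor the 2 NK-cell markers tested in edgeR (at an unadjusted p under 0.05, 1 lower and 1 higher; in DESeq2, 0 and 1 higher). In 697 alone, however, the erythroid and megakaryocyte marker GP9 was called lower and the NK marker NKG7 higher, and summed NK markers ran from 3.86 to 5.2 CPM in control and from 8.78 to 12.2 CPM in edited libraries; their part in other changes was not tested.

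Most cell-cycle and DNA damage genes were not called by the edit term. Of 35 S-phase genes 4 rose (11.4%, against 5.16% of all genes) and 2 fell (5.71%, against 7.13%), with a median edit term of 0.10. Of 36 genes of G2 and M phase 4 rose (11.1%) and 0 fell (median 0.06). UBE2C, a ubiquitin-conjugating enzyme of mitotic exit chosen after its values were seen, fell in 697 alone, from 23.2 ± 2.53 to 4.85 ± 0.386 CPM (SD, n = 3), and was not called by the edit term. UNG, the uracil DNA glycosylase, rose from 87.1 ± 5.49 to 112 ± 5.6 CPM in 697 and from 98.6 ± 8.86 to 119 ± 1.43 CPM in KOPN-8 (SD, n = 3), and SMC4, a condensin subunit, from 418 ± 27.6 to 501 ± 28.4 CPM and from 499 ± 11.7 to 565 ± 1.36 CPM. Of 25 checkpoint genes, 4 rose (16%) and 1 fell (4%; median 0.13). TP53BP1, which is recruited to DNA breaks, had 85.5, 87 and 84.2 CPM in control and 98, 99.8 and 107 CPM in edited 697 libraries, and 87.6, 94.4 and 88.6 CPM against 120, 118 and 115 CPM in KOPN-8. All edited libraries lay above the controls (edit term 0.32, SE 0.048; edgeR adjusted p = 0.000563).

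Mismatch repair is tied to H3K36 methylation because MSH6 carries a reader domain for the mark. Of 22 mismatch repair genes tested 3 rose (13.6%, against 5.16% of all genes), MSH3 and RFC5 among them, and 0 fell. MSH3, a subunit that recognises larger loops, rose in both lines, from 31.6 ± 2.06 to 39.3 ± 1.33 CPM and from 28.2 ± 2.13 to 38 ± 2.07 CPM (SD, n = 3; edit term 0.37, edgeR adjusted p = 0.0012). RFC5, a clamp-loader subunit, had an edit term of 0.30 and was called in KOPN-8 alone; its edit term did not pass with the replicate block (edgeR adjusted p = 0.0539). MSH6 was called in opposite directions, with log2 fold changes of 0.21 in 697 and -0.23 in KOPN-8 (chosen after its values were seen).

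Of 28 genes of p53 and its targets, 2 rose (7.14%) and 3 fell (10.7%), shares close to the 5.16% and 7.13% of all genes. CDKN1A, which encodes the cell-cycle inhibitor p21, was the only one called in the same direction in both lines. It had 70, 78.7 and 66.4 CPM in control and 53.1, 56.4 and 46.7 CPM in edited 697 libraries, and 292, 254 and 239 CPM against 186, 188 and 186 CPM in KOPN-8. The edited libraries were below the controls throughout, and the log2 fold changes were -0.46 and -0.49 (edit term -0.47, SE 0.0631; edgeR adjusted p = 0.000169; interaction -0.03). TNFRSF10B, a death receptor on chromosome 8, fell in KOPN-8 from 214 ± 8.37 to 109 ± 2.39 CPM. It was near the floor in 697, so its edit term of -0.96 described KOPN-8 alone.

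A minority of lipid synthesis genes fell by the edit term. Of 24 cholesterol synthesis genes tested, 6 fell (25%, against 7.13% of all genes) and 0 rose, with a median edit term of -0.18. The list's median was -0.39 in 697, where 19 genes were called lower and 1 higher, and 0.01 in KOPN-8, where 3 were called lower and 3 higher; the interaction was called in 18 of the 24. SQLE, the squalene epoxidase on chromosome 8, and SC5D, a late sterol desaturase on chromosome 11, were called lower in both lines. SQLE had 239, 255 and 220 CPM in control and 184, 194 and 182 CPM in edited 697 libraries, and 279, 272 and 279 CPM against 183, 178 and 175 CPM in KOPN-8, with no overlap (edit term -0.49, SE 0.0579; edgeR adjusted p = 5.6e-05). SC5D fell from 70.5 ± 2.48 to 52.6 ± 3.91 CPM and from 73.6 ± 0.94 to 61.2 ± 1.94 CPM (SD, n = 3).

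FDFT1, the squalene synthase, also on chromosome 8, fell in KOPN-8 alone (log2 fold changes -0.16 in 697 and -0.77 in KOPN-8). HMGCS1, the synthase near the head of the pathway, fell in 697 alone (-0.60, against 0.04 in KOPN-8) and was not called by the edit term. IDI1 and LSS were called lower in 697 and higher in KOPN-8. Of 12 fatty acid synthesis genes, 5 fell (41.7%) and 0 rose (median -0.18). SCD, the stearoyl-CoA desaturase, had log2 fold changes of -0.25 and -0.28 and was called in both lines (edit term -0.26, edgeR adjusted p = 0.00127), whereas FASN, the fatty acid synthase, was called in 697 alone (-0.49 against -0.12). With the replicate block the edit terms of FDFT1 (edgeR adjusted p = 0.0532) and FASN (edgeR adjusted p = 0.0501) did not pass. HMGCS1, IDI1 and LSS were chosen after their values were seen.

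Immune and stress genes gave few shared calls. Of 17 NF-kB subunits and targets 3 fell (17.6%, against 7.13% of all genes) and 0 rose, none of them called in 697. LTA, the cytokine lymphotoxin alpha, fell in KOPN-8 from 252 ± 46.8 to 80.8 ± 6.41 CPM and stood at 2.25 ± 0.532 and 2.54 ± 0.268 CPM in 697 (SD, n = 3). Its edit term of -1.27 was lost without KOPN-8 edited replicate 2 (edgeR adjusted p = 0.0504), with the replicate block (edgeR adjusted p = 0.0877) and in DESeq2 (adjusted p = 0.0647). Of 32 interferon-stimulated genes 3 rose (9.38%, against 5.16% of all genes) and 1 fell (3.12%), and DDX58, the RNA sensor RIG-I, rose in both lines, from 19.6 ± 0.948 to 25.5 ± 2.16 CPM and from 36.1 ± 1.86 to 42.4 ± 3.03 CPM. Of 14 HLA class II presentation genes 2 fell (14.3%) and 0 rose. HLA-DMB, which loads peptides onto class II molecules, fell from 13 ± 3.16 to 8 ± 1.45 CPM in 697, where 1 edited library lay just above the lowest control, and from 395 ± 6.44 to 280 ± 23.4 CPM in KOPN-8. Of 16 class I presentation genes 1 rose (6.25%; the proteasome subunit PSMB9) and 2 fell (12.5%; the peptide transporters TAP1 and TAP2), and none was called in both lines. All 3 edit calls were lost with the replicate block (edgeR adjusted p = 0.0708, 0.0731 and 0.06) and without single libraries. PSMB9 lost its call without any 1 of 9 libraries, all but 697 control replicate 2, KOPN-8 control replicate 1 and KOPN-8 edited replicate 3 (highest edgeR adjusted p = 0.0908). TAP1 lost it without 697 control replicate 2, KOPN-8 control replicate 1 or 3 or any 1 of the edited KOPN-8 libraries (0.0858 at most), and TAP2 without 697 control replicate 1 or 3, 697 edited replicate 2 or 3, KOPN-8 control replicate 2 or 3 or KOPN-8 edited replicate 2 (0.0901 at most).

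Genes of drug response were followed because SETD2 mutations have been linked to chemotherapy resistance. Of 21 genes of chemotherapy uptake, activation and efflux, 2 rose (9.52%, against 5.16% of all genes) and 4 fell (19%, against 7.13%). SAMHD1, a triphosphohydrolase that degrades active cytarabine, rose in both lines, from 5.22 ± 1.52 to 9.1 ± 1.98 CPM in 697 and from 193 ± 2.78 to 253 ± 22.4 CPM in KOPN-8 (SD, n = 3; edit term 0.54, edgeR adjusted p = 0.0111). It lay outside the rule for named genes and was chosen after its values were seen. The transporter genes ABCG2 and ABCA3 had 0 counts in KOPN-8 and in 697, so their edit terms of 1.10 and -1.75 each described the other line. GGH, a folate hydrolase on chromosome 8, fell in KOPN-8 alone, from 73.7 ± 3.44 to 42.1 ± 3.18 CPM. Its edit term was lost with the replicate block (edgeR adjusted p = 0.0617). Of 13 genes of the glucocorticoid receptor and its response, 1 rose (7.69%) and 3 fell (23.1%); FKBP5, a chaperone induced by the receptor, had log2 fold changes of -0.16 in 697, not called, and -0.50 in KOPN-8.

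The enzymes and readers of H3K36 methylation did not stand out from the genes tested as a whole. Of 16 enzymes 1 rose and 0 fell (6.25%, against 5.16% of all genes higher), and of 19 readers 1 rose and 1 fell (5.26% each). NSD2, which places the lower methylation states, had an edit term of 0.14, from 183 ± 5.37 to 198 ± 2.91 CPM in 697 and from 397 ± 10.1 to 448 ± 18.4 CPM in KOPN-8 (SD, n = 3). The edit terms of the readers MTF2 and MSL3 were 0.16 and -0.21. The call of NSD2 was lost without any 1 of the KOPN-8 libraries, 697 control replicate 1 or 697 edited replicate 1 (highest edgeR adjusted p = 0.113). That of MTF2 was lost without 1 of the KOPN-8 libraries other than edited replicate 3, without 697 control replicate 1 or without 697 edited replicate 3 (highest edgeR adjusted p = 0.0708). That of MSL3 was lost without KOPN-8 control replicate 2 or 3, KOPN-8 edited replicate 1 or 2, 697 control replicate 3 or 697 edited replicate 1 or 2 (highest edgeR adjusted p = 0.0819). NSD2 and MTF2 also lost theirs with the replicate block (edgeR adjusted p = 0.0743 and 0.063). Of 31 polycomb subunits 2 rose and 2 fell (6.45% each), and none was called in the same direction in both lines. Of 22 genes of the ATF4 response and 25 of glycolysis and hypoxia, 1 each rose (4.55% and 4%) and 0 fell.

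Splicing factors and the BCL2 family gave no call of the edit term. In edgeR, 0 of 38 splicing factors and 0 of 14 BCL2 family genes were called; at an unadjusted p under 0.05, 6 splicing factors were higher and 0 lower, and 1 BCL2 family gene was higher and 2 lower. DESeq2 called 1 gene higher in each list. Their median edit terms were 0.05 and -0.001.

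The 6 named genes that the lines called in opposite directions changed by at least 2-fold in each line and were not called by the edit term. GK5, a glycerol kinase family member on chromosome 3, had 10.7, 9.09 and 11.2 CPM in 697 controls and 2 counts in all edited 697 libraries (ratio of control to edited 191, 95% counting interval 52.5 to 1580). In KOPN-8 the controls had 0 counts and the edited libraries 7.16, 7.29 and 8.88 CPM, at least 128-fold higher against a floor of 3 counts over the group. It was thus detected in control 697 and edited KOPN-8 and at or under the floor in the other groups. TNS3, a tensin of focal adhesions, had 3.21, 5.69 and 4.9 CPM in control and 24.2, 26.5 and 24.4 CPM in edited 697 libraries, and 18, 20.5 and 22.2 CPM against 2.92, 4.2 and 3.61 CPM in KOPN-8. Its levels changed places between the lines (edit term -0.003, edgeR adjusted p = 0.999; interaction -4.96, edgeR adjusted p = 4.94e-14).

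PYGL, the liver-type glycogen phosphorylase, rose from 15 ± 1.88 to 76 ± 7.24 CPM in 697 and fell from 22.5 ± 1.47 to 1.92 ± 0.992 CPM in KOPN-8 (SD, n = 3). FSCN1, the actin-bundling protein fascin, rose from 7.63 ± 0.686 to 28.4 ± 3.89 CPM and fell from 10.9 ± 1.06 to 1.14 ± 0.461 CPM. TEX19 and FKBP10 followed the same order, higher in edited 697 and lower in edited KOPN-8. Of the 273 genes, 182 were higher in 697 and lower in KOPN-8 and 91 the reverse, and 38 changed by at least 2-fold in both lines. The edit term called 2 of the 273. With equal weights PYGL and FSCN1 had averages of -0.59 and -0.69 and were called lower (edgeR adjusted p = 0.00258 and 0.000549), although both rose in 697.

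**Figure D4:**
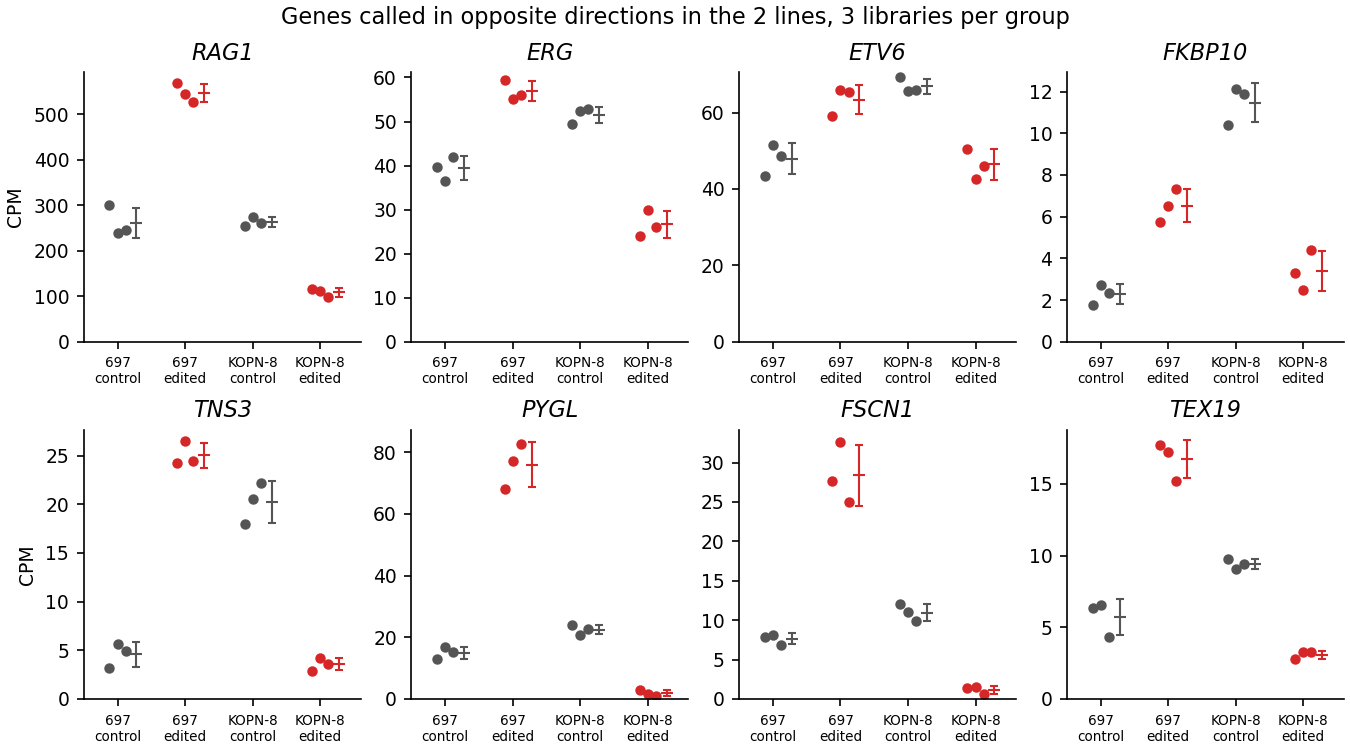
Each panel gives the CPM (y axis, from 0) of 1 gene in the 3 libraries of each group (x axis; controls grey, edited red), with the mean and SD beside them. In all 8 genes the edited libraries lie above the controls in 697 and below them in KOPN-8, and no edited library overlaps a control of its line.

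Calls of the edit term that rested on 1 line included some of its largest changes. Of the 6 named genes called in 1 line and by the interaction, TNNT1, SLIT2, C15orf41, ZNF257 and IL27RA were called in KOPN-8 alone and FRMPD1 in 697 alone. SLIT2, a secreted guidance ligand, went from 21.7 ± 4.86 to 16.3 ± 2.96 CPM in 697 and from 17.1 ± 1.42 to 2.59 ± 0.292 CPM in KOPN-8 (SD, n = 3). IL27RA, a cytokine receptor, stood at 6.51 ± 0.681 and 6.37 ± 0.968 CPM in 697 and fell from 37.7 ± 2.2 to 9.67 ± 1.19 CPM in KOPN-8, so that an edit term of -1.13 summarised log2 fold changes of -0.02 and -1.96. ZNF257, a zinc-finger protein, rose from 2.3 ± 0.062 to 11.4 ± 0.309 CPM in KOPN-8 and was not called in 697, at 18.1 ± 2.27 and 22.7 ± 0.911 CPM. FRMPD1, a scaffold protein, fell from 45.3 ± 16.1 to 13.1 ± 2.88 CPM in 697 and went from 24.8 ± 1.99 to 17.6 ± 2.57 CPM in KOPN-8.

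These edit terms depended on the block and, except for C15orf41, on single libraries. With the replicate block none of the 6 passed (edgeR adjusted p = 0.136 for TNNT1, 0.13 for SLIT2, 0.0828 for C15orf41, 0.122 for ZNF257, 0.0521 for FRMPD1 and 0.152 for IL27RA). Leaving out any 1 of the KOPN-8 libraries also ended the calls of TNNT1, SLIT2, ZNF257 and IL27RA, with highest edgeR adjusted p = 0.125, 0.104, 0.0775 and 0.115. TNNT1 lost its call without 697 control replicate 2 or 697 edited replicate 1 too, SLIT2 without 697 control replicate 1 or 697 edited replicate 3, and IL27RA without 697 edited replicate 3. FRMPD1 lost its call without 697 edited replicate 2 or 3 or KOPN-8 edited replicate 1 (highest edgeR adjusted p = 0.0553). The KOPN-8 changes, by which 5 of these genes were picked, had edgeR adjusted p = 8.67e-08 for TNNT1, 4.23e-11 for SLIT2 and 1.33e-10 for C15orf41. For ZNF257 and IL27RA it was 1.02e-11 and 4.22e-12, and for the 697 change of FRMPD1 0.00227. These line changes were not followed with the block or with libraries left out.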

How the data were processed

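Read counts per gene symbol were used as the authors deposited them (59611 symbols, 30589 of them with a count in a library). The submitters' processing notes name Trimmomatic, STAR, DESeq2 and hg19. Not given in the sources used here were versions, the read counter, its strand setting and the gene models. Y-linked symbols (501 with XIST, 49 with a count) were left out, and the number of unused sample columns was 0. The edit term came from an additive model in edgeR 4.0.16 (R 4.3.3; TMM scaling, filterByExpr over the 4 groups, robust quasi-likelihood test), and the line changes and the interaction from a fit with 1 mean per group. The 15195 genes kept held 99.9% of the counts in the lowest library. An SE is the log2 fold change divided by the root of F. The depth of 10378769 to 18278662 counts sets the precision.

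Members and the 30 gene lists were chosen with earlier results of these data known, so no list is independent evidence. Named genes were SETD2; the 12 highest and 12 lowest genes called by the edit term and in both lines the same way, with at least 5 CPM in each line and no overlap, ranked by the smaller change; the 6 largest opposite changes under the same conditions; the 6 largest edit terms among genes with at least 5 CPM in each line called in 1 line and by the interaction; and up to 3 edit calls per list; some genes picked this way are not reported here. Chromosomes and gene spans came from GENCODE and RefSeq tables of GRCh38, and promoters from RefSeq (GRCh38.p14). For the 13 genes of the metallothionein list 7 promoter windows were found, with SLC39A10 found more than once. Alternatives were equal weights, other scalings and filters, DESeq2 1.42.0, a stricter threshold, no genes of chromosomes 8 and 13, a replicate block and leaving out each library. The procedure was tested on simulated data.

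To see whether replicate numbers pair libraries, deviations from group means were correlated. Among 10802 genes averaging 5 CPM or more, same-numbered libraries had r = 0.302, 0.515 and 0.221 in 697 and 0.132, 0.169 and 0.197 in KOPN-8, all over 0.1. Over all 15195 genes r was 0.195, 0.357 and 0.167 in 697 and 0.0817, 0.0854 and 0.128 in KOPN-8. The pairing comes from the data alone, holds in 697 on both gene sets and in KOPN-8 on the first only, and blocked values are given for named genes whose call they change.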

Additional observations from a re-analysis of the deposited data

Results flagged for a closer look

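The change differed between the lines, by the test of the interaction itself (edgeR adjusted p under 0.05), in 35 of the genes picked by the rule for named genes and reported here, beside genes chosen after their values were seen. Over all genes tested the share was 19.5%, and the named genes are not a sample of them. The 6 genes called in 1 line were picked by the interaction itself. The 6 with opposite directions came from genes that were all called by it, so both sets were fixed in advance. Values are the KOPN-8 change minus the 697 change on the log2 scale. SETD2 differed by -0.54. Of genes that rose in both lines, AL139020.1 (1.87) and DTX1 (0.76) rose more in KOPN-8 and ERCC6L (-2.35) more in 697. Of genes that fell in both, MT1F (-1.31), TPH2 (-3.27), XPNPEP2 (-1.997) and FRY (-2.01) fell more in KOPN-8. RTKN2 (5.11) and MT1E (6.31) fell more in 697, where the edited libraries held 1 count, so these 2 fitted values depend on the prior count.

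Genes called in opposite directions differed as follows: GK5 (17.26, with groups at 0 to 2 counts in both lines, so that the value depends on the prior count), PYGL (-5.86), FSCN1 (-5.18), TNS3 (-4.96), FKBP10 (-3.24) and TEX19 (-3.14). Genes called in 1 line were SLIT2 (-2.31), TNNT1 (-2.28), IL27RA (-1.94), C15orf41 (-1.87), ZNF257 (1.98) and FRMPD1 (1.30).

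Among list members, the KOPN-8 change was the lower one for LTA (-1.82), MT2A (-1.04), GGH (-0.66), FDFT1 (-0.61), GPI (-0.51), MCM4 (-0.48), FKBP5 (-0.34) and SQLE (-0.28). GGH, FDFT1, MCM4 and SQLE lie on chromosome 8. The KOPN-8 change was the higher one for RYBP (0.60), IL7R (0.42), RFC5 (0.40), PAX5 (0.39) and FASN (0.37).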

How the results depend on the processing

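Upper-quartile and median-ratio scaling moved no count of calls by over 1.5 times (edit term 861 higher and 1049 lower, and 811 and 1052). DESeq2 called 2391 genes by the edit term, 1755 of them shared with edgeR, and 199 of the genes that moved together, 182 shared. Equal weighting gave 2988 edit calls, called SETD2 (0.17) and turned SOCS2, with 0 to 2 counts per KOPN-8 library, from 0.74 to -1.14 (edgeR adjusted p = 0.25). At least 1 CPM in each line left 1130 edit calls, whereas 1271 of the 1867 main edit calls reached that level in each line. The reason for this difference was not tested. No filter gave 152 calls over the lists. An adjusted p under 0.01 left 732 edit calls, 121 genes with a shared and 136 with opposite directions in both lines, 1904 interaction calls, 86 genes that moved together and 45 calls over the lists.

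The replicate block, which pairs same-numbered libraries, gave 986 edit calls, 527 genes called in the same and 493 in opposite directions, 3863 interaction calls, 323 genes that moved together and 51 calls over the lists, and ended the edit call of 35 named genes. Of those not described above, edgeR adjusted p with the block was 0.0603 for HLA-DMA, 0.0601 for IFIH1, 0.0622 for MCM4, 0.0889 for RYBP, 0.107 for GPI, 0.0508 for CBX6, 0.0522 for ECT2, 0.0617 for TTK and for ACSS2, 0.097 for CFLAR, 0.0966 for SOCS2 and 0.0639 for LYZ. A block in 697 alone, added after seeing the data, gave 453, 427 and 307 for the same direction, opposite directions and genes that moved together. The cause of these shifts was not tested.

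Leaving out 1 library at a time gave 1236 to 1965 edit calls (fewest without KOPN-8 control replicate 1), 202 to 294 genes in the same and 209 to 289 in opposite directions, 2439 to 3106 interaction calls, 143 to 217 genes that moved together, 66 to 103 calls over the lists, and an edit term of SETD2 of 0.11 to 0.22 (0.37 to 0.48 in 697, -0.14 to -0.06 in KOPN-8). Counts near 3 per library limit genes at 0.159 to 0.293 CPM, and 1 clone per line limits every result.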
